A study of Mus musculus with 16 samples.

Results

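The 40 genes described here encode parts of the machinery that brings nuclear-encoded proteins into mitochondria, apart from Timmdc1, an assembly factor of respiratory complex I that was included by its name. They were taken by name from the 28618 entries (27987 gene names) of an RNA-seq table of mouse oocytes: every gene whose name starts with Tomm or Timm, together with Dnajc15, Dnajc19, Pam16, Grpel1, Grpel2, Hspa9, Hspd1, Hspe1, Chchd4, Gfer, Pmpca, Pmpcb, Samm50, Mtx1 and Mtx2. Each had 1 entry. The table held 16 libraries, 4 biological replicates in each of 4 groups. Germinal vesicle (GV) oocytes, which are fully grown and arrested in meiotic prophase, came from wildtype (WT) females and from Psma7 cKO females of genotype Zp3-Cre; Psma7 flox/flox, and metaphase II (MII) eggs came from the same 2 genotypes. Psma7 encodes an alpha subunit of the 20S proteasome core, and Zp3-Cre is active in growing oocytes, so that the deletion precedes the GV stage in oocytes and leaves other tissues with the gene. The mice were C57BL/6, whether WT animals carried floxed alleles is not given in the labels, and all females were 3 to 4 weeks old and primed with 5 IU of pregnant mare serum gonadotropin. GV oocytes were taken 44 h later. Eggs were collected from oviducts 14 to 16 h after a further injection of chorionic gonadotropin and were freed of cumulus cells with 0.3% hyaluronidase. A sample was a pool of 5 oocytes in the labels, and the number of females behind a pool is not given, so p-values measure the spread between these pools.

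Most mitochondrial proteins are made in the cytosol and enter through the TOM complex of the outer membrane. From there the SAM complex inserts outer membrane barrel proteins, the MIA pathway oxidises small proteins of the intermembrane space, small TIM chaperones carry hydrophobic cargo to the TIM22 complex, and the TIM23 complex with its motor draws proteins with a presequence into the matrix, where the presequence is cut off and the protein is folded. Oocytes hold a large stock of mitochondria and are largely silent in transcription while they mature. The level of a transcript in an MII egg depends on how much of the stored mRNA is left and on the length of its poly(A) tail, which changes during maturation, and an oligo-dT library such as these cannot tell the 2 apart. Levels are in FPKM, fragments per kilobase of transcript scaled to the mapped fragments of a library, which is a share of that library corrected for transcript length. A fall in FPKM can thus not be told apart from a rise of other transcripts, or from a change in RNA per oocyte.

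Psma7, the deleted gene, followed the labels in all libraries. It stood at 142 to 201 FPKM in WT GV oocytes and 11.1 to 18 in cKO GV oocytes (log2 fold change -3.51, adjusted p = 8.98e-07), and at 97.7 to 172 in WT eggs against 13.6, 50.3, 35.0 and 59.9 in cKO eggs (-1.83, adjusted p = 0.0359). All 12 oocyte marker genes looked for were measured, with a summed level of 13992 to 19125 FPKM over the 16 libraries. Of 13 cumulus and granulosa cell markers, 11 were under 1 FPKM in every library and the summed level was 11.6 to 17.5 FPKM. The table gives no read depth. From the spacing of the lowest values in genes with 1 annotated transcript, it was estimated at 10460000 to 15580000 fragments a library, so that 1 FPKM for a transcript of 1 kb was about 13.6 fragments at the median depth. The labels call all egg pools MII. The paper reports that some ovulated cKO oocytes did not extrude the first polar body or stayed at the GV stage. It also reports that a part of those that did extrude it were arrested at telophase I. Whether such oocytes entered these pools was not tested. The cKO egg libraries held more of other transcripts that decay in WT maturation. For this, 393 entries outside the import genes were chosen for a fall of more than 10-fold in WT maturation (which by itself keeps the WT share low). Their summed FPKM, as a percent of the mean GV sum of the same genotype, was 5.94 to 6.82% in the 4 WT eggs. It was 12.8, 8.84, 34.3 and 19.0% in cKO egg replicates 1 to 4, a measure weighted to the most abundant entries.

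The import genes spanned a wide range of levels in WT GV oocytes. The members above 100 FPKM on average in WT GV oocytes were 5, with Timm17a at 652 ± 111, Timm9 at 399 ± 64.8, Hspe1 at 146 ± 24.6, Pam16 at 121 ± 23.9 and Mtx2 at 116 ± 5.66 FPKM (mean ± SD, n = 4). The first 2 exceeded the next 3 in every WT GV library, whereas the ranges of Hspe1, Pam16 and Mtx2 overlapped. At the other end Timm10, Tomm5, Tomm20l, Tomm40l and Chchd4 stayed under 1 FPKM in all 16 libraries, and Timm22 and Pmpca averaged under 1 FPKM in WT GV oocytes. The remaining 33 members averaged at least 1 FPKM over the 16 libraries. The low values include genes for core parts of the machinery: Tomm5 is a small TOM subunit, Timm10 is the partner of Timm9, Chchd4 is the oxidoreductase of the MIA pathway and Timm22 is the channel for carrier proteins. Timm10 and Chchd4 were listed at 0 in all 4 WT eggs. The gene annotation behind the FPKM table is not given in the sources used here, and its part in these low values was not tested, so they are values of the table's entries and may not be the level of the transcripts. Timm29, another TIM22 subunit, had no row under that name. Summed by role, the 40 genes made up 2156 ± 239 FPKM in WT GV oocytes, 2166 ± 228 in cKO GV oocytes, 877 ± 52.5 in WT eggs and 1243 ± 223 in cKO eggs (mean ± SD, n = 4 each).

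Related members often had unequal FPKM values in WT GV oocytes. Timm17a, a membrane subunit of TIM23, had 652 ± 111 FPKM against 8.19 ± 1.24 for its X-linked paralogue Timm17b. Tomm40, the channel of the TOM complex, had 31.6 ± 2.05 FPKM against 0.106 ± 0.0136 for Tomm40l. Tomm20, a receptor for presequences, had 5.17 ± 1.62 FPKM against 0.214 ± 0.193 for Tomm20l. Grpel1, a nucleotide exchange factor of the motor chaperone, had 36.6 ± 2.86 FPKM against 5.98 ± 1.5 for Grpel2. Timm10b had 10.0 ± 1.53 FPKM against 0.136 ± 0.0414 for Timm10, which is subject to the same limit of an unnamed annotation. In each of these pairs the first gene was above the second in all 4 WT GV libraries. The catalytic subunit of the presequence peptidase, Pmpcb, had 24.5 ± 1.75 FPKM and its partner Pmpca 0.802 ± 0.294. The 2 subunits of the matrix chaperonin were nearer each other, with 85.2 ± 5.64 FPKM for Hspd1 and 146 ± 24.6 for Hspe1, although Hspe1 was again the higher in every WT GV library. The longest run of identical bases between the transcripts of 10 paralogue or partner pairs was 47, in Timm17a and Timm17b, and was 20 or fewer in the others.

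All 40 members were found in the GENCODE M21 annotation of GRCm38, the mm10 assembly that the submitters' processing notes name. They lay on 18 chromosomes, with Timm17b and Timm8a1 on X. Tomm40 spans chr7:19701313-19715438 on the minus strand, Timm17a chr1:135295213-135313778 on the minus strand, Timm13 chr10:80899450-80900969 on the minus strand and Pmpcb chr5:21737141-21757152 on the plus strand. At least 1 other protein-coding gene overlapped 18 of the members, on the same strand for Tomm6 and Timm10b. The libraries do not mark the strand, so for these genes (Timm9 with Tomm20l and Hspd1 with Hspe1 among them) reads from the shared stretch cannot be assigned with certainty.

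Hspd1 (chr1:55077835-55088243, minus strand) and Hspe1 (chr1:55088132-55091307, plus strand) are transcribed from opposite strands with overlapping first exons in some GENCODE transcripts, and the stretch between the starts of their principal transcripts is shown because both stayed near their GV level in WT eggs (88.1% and 113% of it). It lies at chr1:55088025-55088131 (RefSeq sequence, GRCm38.p6, plus strand, 107 bases). The capitals mark a run of 18 bases in which 3 overlapping copies of the heat shock element core are found, searched as GAANNTTC or TTCNNGAA on both strands (each pattern is its own reverse complement).
Hspd1 and Hspe1: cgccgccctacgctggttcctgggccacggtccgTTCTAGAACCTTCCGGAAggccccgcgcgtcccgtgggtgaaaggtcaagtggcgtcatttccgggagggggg
Of 32851 mouse promoters of 300 bases, 15.1% held at least 1 such core and 1.96% held at least 2. Promoter entries existed for 35 of the 40 members, and 9 of these genes held a core. At least 2 cores were found for 3 of them, Hspd1, Hspe1 and Timm9, and Timm9 fell in WT eggs (log2 change -1.84, SE 0.12, adjusted p = 1.01e-07 in limma). The Hspd1 and Hspe1 entries with cores overlap on opposite strands, so the same 3 cores are counted for both genes. Members are counted by gene and the background by promoter entry. A match describes the letters only.

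The 3′ end of an mRNA carries the polyadenylation hexamer and, in some oocyte mRNAs, a cytoplasmic polyadenylation element (CPE), the binding site of CPEB1 through which tails are lengthened or shortened in meiosis. In the last 100 bases of the principal GENCODE transcript (the longest where several rank alike), on the sense strand, a CPE (TTTTAT or TTTTAAT) was found in 5 of 40 members, Tomm70a, Tomm5, Tomm6, Timm8b and Tomm34, and in 16.5% of 21759 coding genes. A hexamer (AATAAA or ATTAAA) was found in the last 40 bases of 32 members and of 69.3% of coding genes. The ends of the Timm8 trio are printed because their transcripts moved in opposite directions during maturation, and the CPE of Tomm34 because this transcript rose. Each line gives 30 bases of the last exon as DNA, with the hexamer or the CPE in capitals.
Timm8a1 hexamer (chrX:134537259-134537288, minus strand): tttggtcactgaAATAAAagctcgcaagat
Timm8a2 hexamer (chr14:122038388-122038417, plus strand): ctgtacatacaaAATAAAtatttaaaagaa
Timm8b hexamer (chr9:50605289-50605318, plus strand): atcacaccagttAATAAAtgtgaagtctcc
Timm8b CPE (chr9:50605243-50605272, plus strand): tcaaaagtgaaaTTTTATttatgggaattc
Tomm34 CPE (chr2:164053570-164053599, minus strand): taattgaactgaTTTTATtgaagtgtgtgt
The annotated end need not be the one an oocyte uses. No match says only that these letters were not in the window.

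From GV oocyte to WT egg, most import genes fell. Levels were tested with limma on log2 FPKM, with values under 1 FPKM set to 1, over all entries that averaged at least 1 FPKM in the libraries compared, and a gene was called at a Benjamini-Hochberg adjusted p under 0.05. Of 33 members tested, 26 fell and 5 rose, against 52.4% and 26.1% of all 10475 entries, and the median log2 change was -1.88 over the members and -0.44 over all entries. Tomm20, Tomm70a, Timmdc1 and Dnajc19 averaged under 1 FPKM in WT eggs (0.583, 0.489, 0.539 and 0.785). They passed the filter only through the GV oocytes and could only be called lower, so they add no support to the counts of falls. The member median is the estimate of Tomm70a. How many of all entries passed in this way was not counted. With every library divided by its median ratio to the mean expressed entry, the median of all entries moved to 0.03, and 23 members fell and 7 rose. Under that scaling Hspd1 turned from lower to higher, Hspe1 was called higher, and Hspa9 and Pam16 were not called, so the calls of these 4 depend on the scaling. The estimates of Hspd1, Pam16 and Timm17b changed sign between the scalings (to 0.27, 0.07 and 0.08), whereas that of Hspe1 was above 0 and that of Hspa9 below 0 under both. The 5 members that rose, Timm21, Timm8a2, Timm23, Tomm34 and Timm8b, did so under both scalings. In the plot of maturation changes, Tomm40, Timm13 and Timm17a stand at the lower end and Timm21 at the upper.

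**Figure D1:**
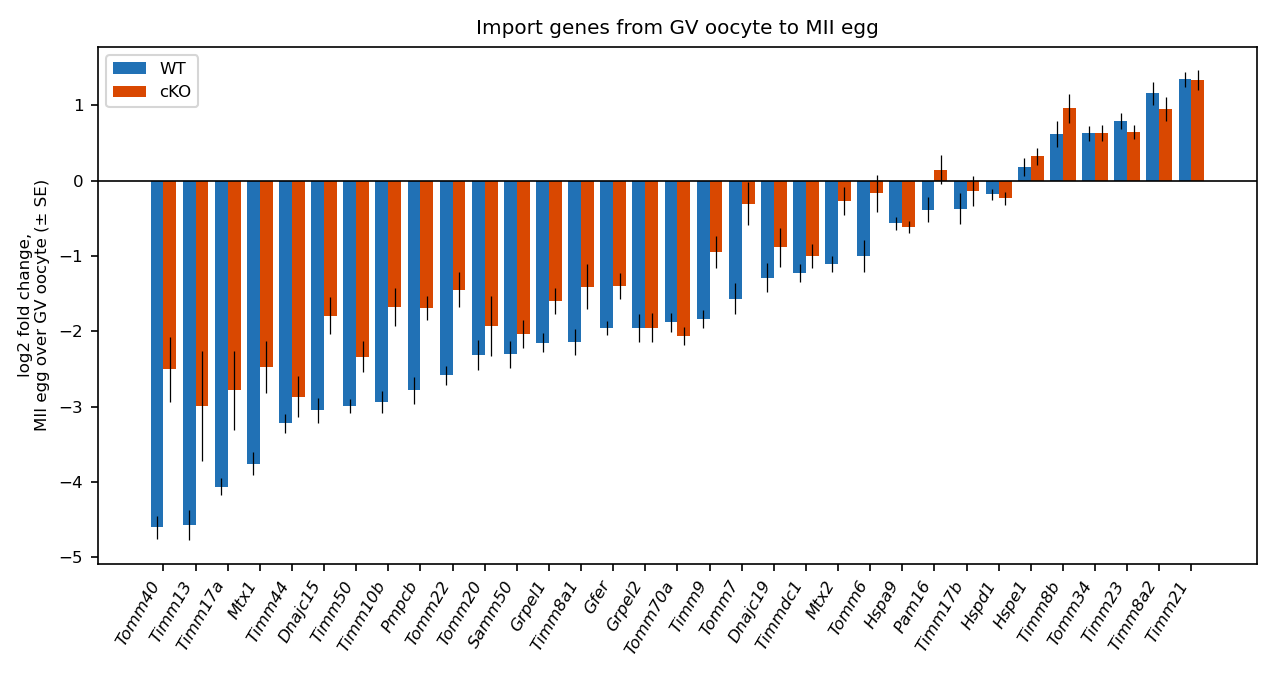
Log2 fold change from GV oocyte to MII egg for the 33 members tested in both genotypes (vertical axis; bars, limma estimate with a 1 FPKM floor; lines, ± SE; n = 4 libraries a group), ordered by the WT change. Tomm40 reached -4.60 in WT and -2.51 in cKO, while Timm21 reached 1.35 and 1.34.

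The deepest fall in WT was that of Tomm40, with 31.6, 28.9, 32.3 and 33.7 FPKM in WT GV oocytes and 1.21, 1.56, 1.51 and 0.637 in WT eggs, a log2 change of -4.60 (SE 0.15, adjusted p = 1.33e-09). The groups were far apart. Timm13, a small TIM chaperone, went from 27.7, 24.8, 40.1 and 32.0 to 1.39, 0.949, 1.77 and 1.11 FPKM, a log2 change of -4.57 (SE 0.20, adjusted p = 8.27e-09). Timm17a, the most abundant member, went from 644, 546, 806 and 609.9 to 35.7, 41.0, 37.1 and 40.7 FPKM, a change of -4.06 (SE 0.11, adjusted p = 6.8e-10). The fourth member past 10-fold was Mtx1, a metaxin of the SAM complex, at 25.6 ± 3.00 and 1.90 ± 0.335 FPKM (-3.76). On means floored at 1 FPKM, 1239 of all 28618 entries (4.33%) were more than 5-fold lower in WT eggs. Many entries are too low to pass this rule, and 10475 averaged at least 1 FPKM over the WT libraries. Among the 40 members, 12 were more than 5-fold lower. Besides those 4, they were Timm44, the membrane anchor of the motor (-3.22), Dnajc15, a J protein of the motor (-3.05), Timm50, the receptor of TIM23 (-3.00), Timm10b (-2.94), Pmpcb (-2.79), Tomm22, the central receptor of TOM (-2.59), Tomm20 (-2.32) and Samm50, the barrel-inserting pore of SAM (-2.31, all log2 changes called lower). The floor shortens the fall of Tomm20, whose WT eggs had 0.476 to 0.791 FPKM.

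Subunits of 1 complex parted during maturation. In TIM23, the channel Timm23 had 38.9, 41.0, 44.8 and 47.2 FPKM in WT GV oocytes and 76.5, 73.7, 62.1 and 87.5 in WT eggs and rose by 0.80 (SE 0.11, adjusted p = 5.75e-05) on the log2 scale. Its regulatory subunit Timm21 had 7.29, 6.93, 8.77 and 7.75 FPKM and then 20.0, 20.9, 18.9 and 18.1, a rise of 1.35 (SE 0.10, adjusted p = 5.25e-07). Both stood above their GV level in every WT egg, whereas Timm17a and Timm50 of the same complex fell, and Timm17b had a log2 change of -0.37 (SE 0.21, adjusted p = 0.124) with an interval of -0.83 to 0.09. The Timm8 trio of small chaperones parted too. Timm8a1 had 18.8, 16.6, 18.7 and 16.0 FPKM and fell to 3.83, 2.85, 5.41 and 4.21, a change of -2.14 (SE 0.18, adjusted p = 8.64e-07). Timm8a2 went the other way, from 5.04, 4.62, 7.46 and 6.07 to 12.6, 13.8, 11.5 and 13.3 FPKM, a change of 1.16 (SE 0.15, adjusted p = 3.46e-05). Timm8b rose from 11.6 ± 1.63 to 18 ± 3.90 FPKM, a change of 0.62 (SE 0.17, adjusted p = 0.00632), with 1 WT egg at 12.5 inside the GV range. Tomm34, a cytosolic cochaperone of precursors, rose from 61.2, 49.8, 51.6 and 50.3 to 86.4, 85.2, 89.1 and 68.8 FPKM, a change of 0.63 (SE 0.10, adjusted p = 0.000224). Of the 5 members with a CPE, Timm8b and Tomm34 rose, Tomm70a and Tomm6 fell, and Tomm5 was too low to test.

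The matrix chaperones stayed nearer their GV level, with WT eggs keeping 67.3% of it for Hspa9, 88.1% for Hspd1 and 113% for Hspe1 on average. Hspd1 had 77.7 to 91.5 FPKM in WT GV oocytes and 70.3 to 77.2 in WT eggs, and Hspe1 had 122 to 179.9 and 150.3 to 185 FPKM. Hspa9, the Hsp70 that pulls precursors through TIM23, had 71.8 to 91.8 and 53.1 to 58.7 FPKM, a log2 change of -0.57 (SE 0.09, adjusted p = 0.000128) that was not called after rescaling. The ranges of Hspe1 overlapped between stages and those of Hspd1 and Hspa9 did not. Summed, the 4 genes of processing and folding held 257 FPKM in WT GV oocytes and 243 in WT eggs, whereas the 9 TOM genes went from 114 to 24.2 FPKM and the 5 TIM23 genes from 760.3 to 146. Single genes went other ways than these sums. Pmpcb of the processing group fell from 24.5 to 3.63 FPKM. Timm17a made up most of the TIM23 sum in WT GV oocytes, at 652 FPKM, and fell to 38.6, while Timm23 and Timm21 rose.

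In GV oocytes, the deletion of Psma7 changed no import gene past the threshold. Of 33 members tested with limma, 0 rose and 0 fell, against 0.0994% higher and 0.0181% lower among all 11062 entries. The lowest adjusted p among the members was 0.281, for Grpel2 (7.81, 5.88, 4.15 and 6.09 FPKM in WT against 10.8, 7.00, 9.17 and 9.19 in cKO GV oocytes, log2 fold change 0.61), which was also the single member with an unadjusted p under 0.05. Among all 11062 entries, 843 were higher and 339 lower at that unadjusted threshold. No tested member had groups without overlap, compared with 4.25% of entries whose cKO libraries were all above and 2.42% whose cKO libraries were all below WT. Tomm40 stood at 31.6, 28.9, 32.3 and 33.7 FPKM in WT and 33.0, 33.4, 37.1 and 35.2 in cKO GV oocytes, a log2 fold change of 0.13 (SE 0.09, adjusted p = 0.638) with an interval of -0.06 to 0.33. The estimate for Timm17a was -0.16 (SE 0.14, adjusted p = 0.744) with an interval of -0.48 to 0.15. The median log2 fold change was 0.02 over the members and 0.04 over all entries. Timm22 averaged too low over both genotypes to be tested, but was at 0.875, 0.561, 0.451 and 0.728 FPKM in WT and 1.43, 1.18, 1.36 and 1.27 in cKO GV oocytes, without overlap; it was singled out after its values were seen.

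In MII eggs, 9 import genes were higher in cKO than in WT and 0 were lower. These were called among 31 members tested with limma, whereas 6.53% of all 9492 entries were higher and 1.49% lower. The estimate was above 0 for 27 of the 31 and for 59.4% of all entries. The median was 0.62 over the members and 0.07 over all entries. At an unadjusted limma p under 0.05, 17 members were higher and 0 lower, against 1952 higher and 835 lower among all 9492 entries. In 13 of the 31, every cKO egg was above every WT egg, and in 0 every cKO egg was below, compared with 13.6% and 7.06% of all entries. Tomm20, among these 13, and Dnajc19, among the 17, averaged under 1 FPKM in WT eggs (0.583 and 0.785). They passed the filter only through the cKO eggs (1.89 and 1.47), so they add no support to these counts. The count of 9 called members depended on single libraries. It was 5 without cKO egg replicate 3, the library with the largest share of the other decaying transcripts left, and it was 0 without any 1 of the 4 WT eggs or without cKO egg replicate 1. The share of all entries called in these settings is not given here. These counts therefore do not show whether the loss was particular to import genes.

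**Figure D2:**
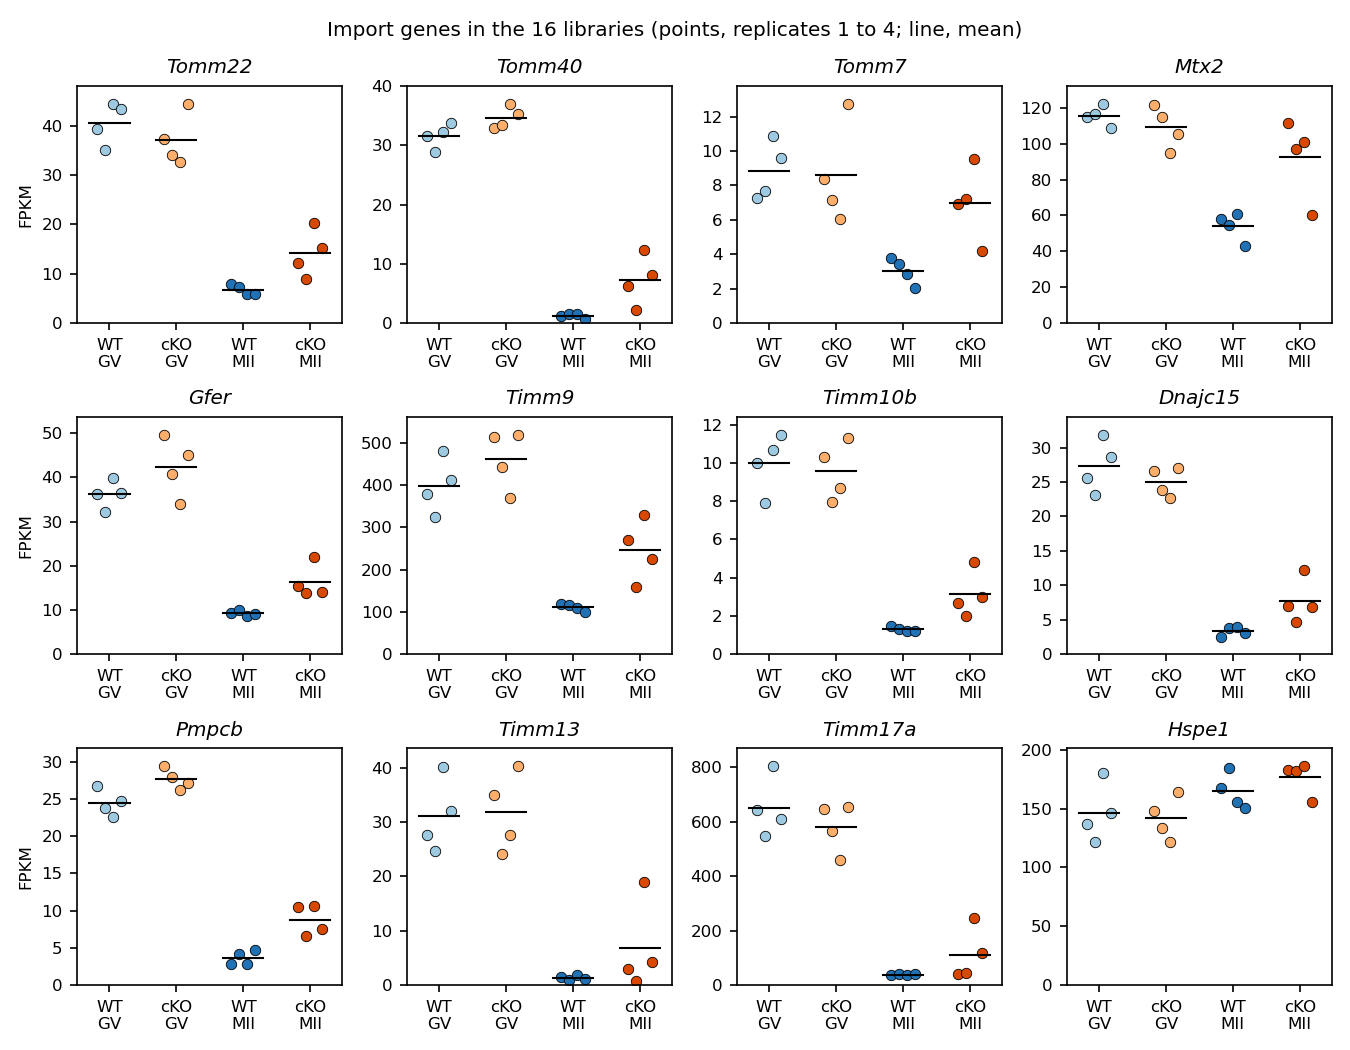
FPKM (vertical axis, from 0) of the 9 import genes called higher in cKO eggs and of Timm13, Timm17a and Hspe1, in each of the 16 libraries; points are replicates 1 to 4 from left to right and the line is the mean of 4. Tomm40 lay between 2.26 and 12.3 FPKM in cKO eggs, above the highest WT egg at 1.56, while Timm17a was high in cKO replicates 3 and 4.

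At the outer membrane, Tomm40 differed most. Its level was 1.21, 1.56, 1.51 and 0.637 FPKM in the WT eggs and 6.17, 2.26, 12.3 and 8.03 in the cKO eggs, or 1.23 ± 0.424 and 7.19 ± 4.18 (mean ± SD, n = 4), with no overlap. The log2 fold change was 2.23 (SE 0.45, adjusted p = 0.0310) in limma and the exact permutation test gave p = 0.0286, the smallest p that 4 against 4 libraries allow (two-sided, 70 arrangements). The estimate stayed between 1.89 and 2.71 when any 1 egg library was left out, and the adjusted p rose above 0.05 without any 1 WT egg (0.0673 to 0.0930) and without cKO replicate 1 (0.0597) or 4 (0.0548). Tomm22 had 7.98, 7.28, 5.93 and 5.92 FPKM in WT and 12.2, 8.87, 20.2 and 15.2 in cKO eggs, a log2 fold change of 1.01 (SE 0.23, adjusted p = 0.0383). Tomm7, a small subunit that tunes the assembly of TOM, had 3.79, 3.45, 2.83 and 2.05 and 6.94, 7.20, 9.52 and 4.18 FPKM, a change of 1.18 (SE 0.27, adjusted p = 0.0376). All cKO eggs were above all WT eggs for both. Mtx2, the second metaxin, had 57.8, 54.8, 60.9 and 43.1 FPKM in WT and 111, 97.3, 101 and 60.1 in cKO eggs, a change of 0.75 (SE 0.19, adjusted p = 0.0472), with cKO replicate 4 inside the WT range. Tomm22, Tomm7 and Mtx2 were not called without cKO replicate 3 (adjusted p = 0.0572, 0.0676 and 0.0909), nor was Mtx2 after rescaling (0.0514). Mtx1 (1.31, SE 0.37, adjusted p = 0.0575), Samm50 (0.57, SE 0.16, adjusted p = 0.0592) and Tomm6 (0.88, SE 0.28, adjusted p = 0.0819) missed the threshold, and Tomm70a, a receptor for carriers, was too low to test in eggs. Tomm20 had 0.503, 0.563, 0.476 and 0.791 FPKM in WT and 0.970, 0.990, 3.41 and 2.2 in cKO eggs, without overlap, but most of these values lie under the floor of 1 FPKM (0.73, SE 0.37, adjusted p = 0.226).

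In the intermembrane space, Gfer, the sulfhydryl oxidase that recharges Chchd4, had 9.36, 9.95, 8.69 and 9.15 FPKM in WT and 15.3, 13.8, 21.9 and 14.1 in cKO eggs. The log2 fold change was 0.78 (SE 0.15, adjusted p = 0.0276). Timm9 had 117, 117, 108 and 100.2 FPKM in WT and 270.5, 158, 329 and 225 in cKO eggs, a change of 1.10 (SE 0.19, adjusted p = 0.0234), the lowest adjusted p of the members. Timm10b, a small TIM of the TIM22 complex, had 1.49, 1.30, 1.20 and 1.20 and 2.68, 2.01, 4.81 and 2.97 FPKM, a change of 1.20 (SE 0.25, adjusted p = 0.0315). None of these 3 overlapped between genotypes. Timm13 had the second largest estimate but a wide spread, with 1.39, 0.949, 1.77 and 1.11 FPKM in WT and 2.89, 0.831, 18.9 and 4.28 in cKO eggs. Its estimate of 1.61 (SE 0.73, adjusted p = 0.181) had an interval of -0.05 to 3.26, and cKO replicate 2 was below every WT egg. On means floored at 1 FPKM, Tomm40 and Timm13 were the 2 members more than 3-fold higher in cKO eggs, and 0 were more than 3-fold lower. Of all 28618 entries, 167 (0.584%) were higher and 2 (0.00699%) lower by this rule. Many entries are too low to pass it, and 9492 averaged at least 1 FPKM in eggs. Without cKO replicate 3 the count of members was 1, and without replicate 1 or 2 it was 4.

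In the inner membrane and matrix, Dnajc15 had 2.50, 3.80, 3.99 and 3.04 FPKM in WT and 6.94, 4.71, 12.2 and 6.81 in cKO eggs, a log2 fold change of 1.14 (SE 0.28, adjusted p = 0.0418) that lost its call without cKO replicate 3 (adjusted p = 0.0572). Pmpcb had 2.79, 4.20, 2.84 and 4.70 and 10.5, 6.53, 10.6 and 7.48 FPKM, a change of 1.28 (SE 0.23, adjusted p = 0.0249). Both were without overlap. Timm17a had 35.7, 41.0, 37.1 and 40.7 FPKM in WT and 39.7, 42.6, 246 and 118 in cKO eggs. Its cKO replicates 1 and 2 were near the WT level and replicates 3 and 4 were far above it, and the estimate was 1.12 (SE 0.52, adjusted p = 0.184). Pam16, a motor subunit and the highest motor member in eggs, had 93.0, 114, 87.8 and 73.7 FPKM in WT and 161, 126, 154 and 103 in cKO eggs and missed the threshold (0.55, SE 0.17, adjusted p = 0.0696). Timm50 (0.73, SE 0.21, adjusted p = 0.0606) and Grpel2 (0.62, SE 0.18, adjusted p = 0.0606) were higher in every cKO egg without passing the adjusted threshold, and the estimates for Timm44 and Grpel1 were 0.45 (SE 0.27, adjusted p = 0.294) and 0.47 (SE 0.20, adjusted p = 0.151).

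The 5 members that rose in WT maturation, and the chaperones Hspd1, Hspe1 and Hspa9, had estimates near 0 between the genotypes in eggs, and none of the 8 was called. The log2 fold change and its 95% interval were -0.19 (-0.45 to 0.07) for Timm23, -0.09 (-0.26 to 0.09) for Timm21, 0.03 (-0.19 to 0.25) for Timm8a2 and -0.02 (-0.39 to 0.35) for Timm8b. They were 0.02 (-0.23 to 0.27) for Tomm34, -0.07 (-0.20 to 0.07) for Hspd1, 0.10 (-0.09 to 0.30) for Hspe1 and 0.11 (-0.04 to 0.27) for Hspa9. In the plot of egg fold changes these genes have short intervals around 0, and the bound farthest from 0 is that of Timm23. The 4 genes of processing and folding summed to 243 ± 15.7 FPKM in WT and 257 ± 15.5 in cKO eggs, compared with 24.2 ± 5.12 and 53.4 ± 13.3 for the TOM genes and 148 ± 8.49 and 293 ± 81.6 for the small TIM genes. The processing and small TIM sums follow their most abundant genes. Hspd1 and Hspe1 averaged 75.0 and 165 FPKM in WT and 71.6 and 177 in cKO eggs. Pmpcb of the same group was called higher in cKO eggs (3.63 and 8.76 FPKM). Timm9 made up most of the small TIM sum, at 111 FPKM in WT and 246 in cKO eggs.

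**Figure D3:**
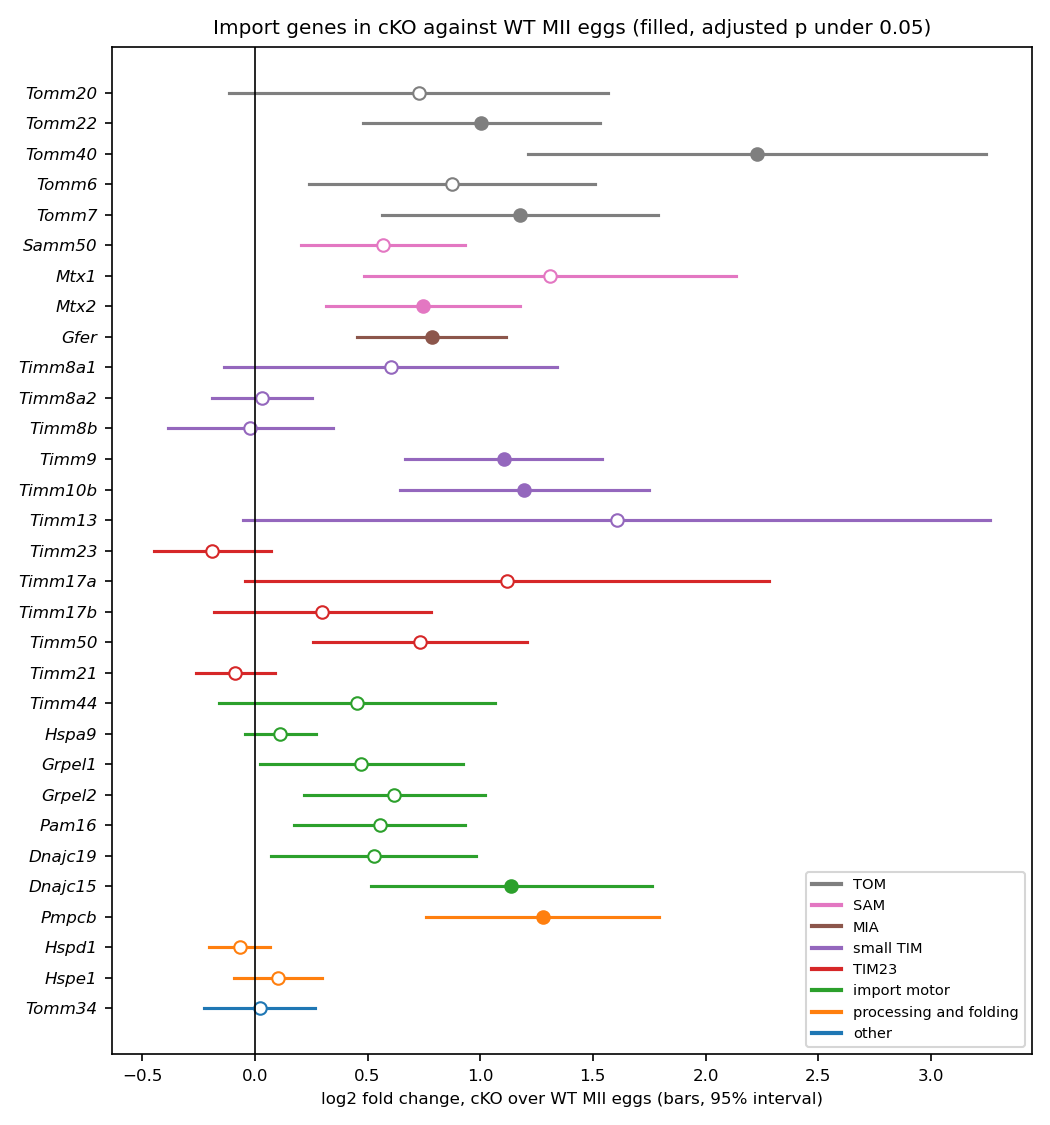
Log2 fold change of cKO over WT MII eggs (horizontal axis) with its 95% interval for the 31 members tested, coloured by role; filled points are called at an adjusted p under 0.05. The 9 filled points lie between 0.75 (Mtx2) and 2.23 (Tomm40), and Timm13 has the widest interval.

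From cKO GV oocyte to cKO egg, 22 of 33 members fell and 6 rose, against 51% and 23% of all 10748 entries, with a median log2 change of -1.39 over the members and -0.42 over all entries. Tomm70a and Timmdc1 averaged under 1 FPKM in cKO eggs (0.653 and 0.470). They passed the filter only through the GV oocytes and add no support to the count of falls. The comparison shares its egg and GV libraries with the genotype comparisons, so the values are set side by side. On means floored at 1 FPKM, Timm17a and Timm44 were the 2 members more than 5-fold lower in cKO eggs. Of all 28618 entries, 641 (2.24%) were, many being too low to pass, and 10748 averaged at least 1 FPKM over the cKO libraries. The log2 change of Tomm40 was -2.51 (SE 0.43, adjusted p = 0.000578) in cKO, from 33.0, 33.4, 37.1 and 35.2 to 6.17, 2.26, 12.3 and 8.03 FPKM. Timm21, Timm8a2, Timm8b, Timm23 and Tomm34 rose in cKO as well, and Hspe1 was the other member called higher (0.32, SE 0.11, adjusted p = 0.0229). Without cKO egg replicate 3, 22 fell and 5 rose.

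Relative to the mean GV level of the same genotype, the WT eggs kept 3.84, 4.93, 4.77 and 2.01% of Tomm40 and the cKO eggs 17.8, 6.51, 35.5 and 23.2% in replicates 1 to 4. For Timm17a they kept 5.48, 6.29, 5.69 and 6.25% in WT and 6.82, 7.33, 42.3 and 20.3% in cKO eggs. For Pmpcb it was 11.4, 17.2, 11.6 and 19.2% and 37.7, 23.5, 38.1 and 27.0%. Over the 22 members more than 2-fold lower in WT eggs, cKO replicate 3 was the highest cKO egg for 19 and replicate 1 for 3, and replicate 3 also had the largest share left of the 393 decaying entries outside the list. The part of this difference in the values of single import genes was not tested.

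**Figure D4:**
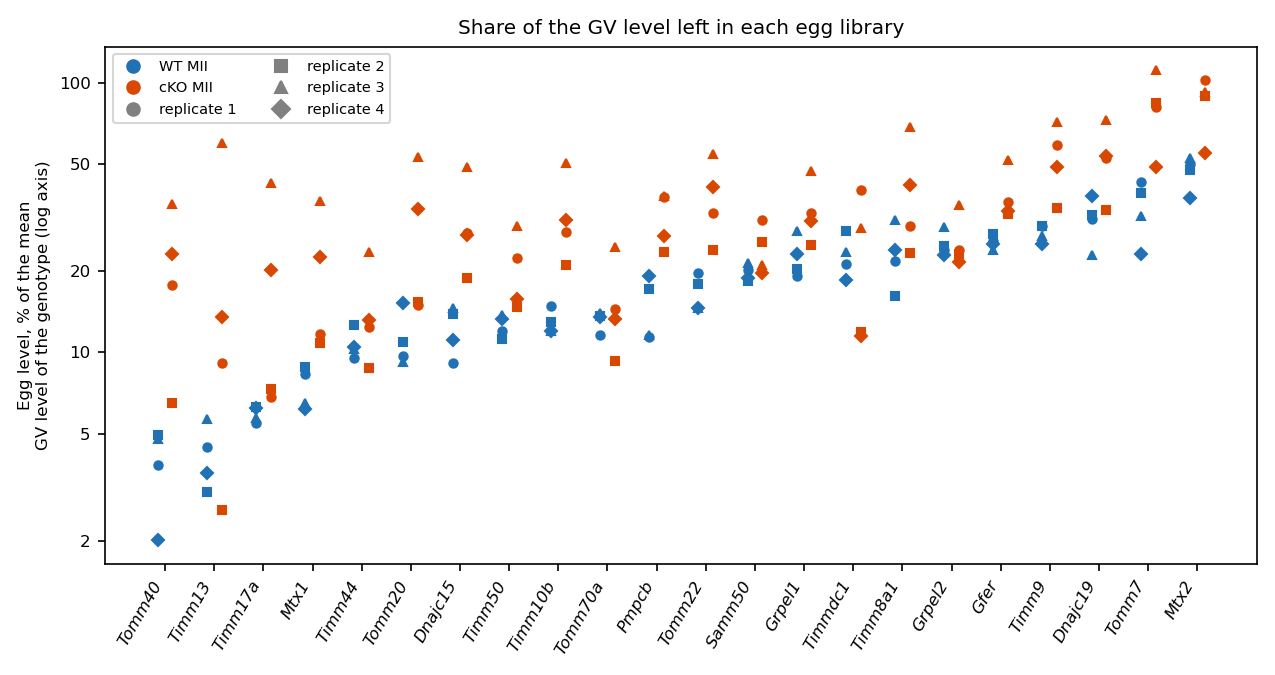
Level in each MII egg library as a percent of the mean GV level of its genotype (vertical axis, logarithmic) for the 22 import genes more than 2-fold lower in WT eggs; blue points are WT eggs, orange points cKO eggs and symbols are replicates. The WT eggs of Tomm40 lie at 2.01 to 4.93% and its cKO eggs at 6.51 to 35.5%, and cKO replicate 3 (triangles) is mostly on top.

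Whether the genotype difference itself changed with stage was tested as an interaction over the 16 libraries. Of 33 members, 2 had a larger cKO to WT ratio in eggs than in GV oocytes and 0 had a smaller one, against 1.07% and 0.188% of all 10615 entries. They were Tomm40, with an interaction of 2.1 (SE 0.48, adjusted p = 0.0444) on the log2 scale in limma, and Pmpcb, with 1.09 (SE 0.25, adjusted p = 0.0434). Both adjusted p values lie near the threshold, and 0 members were called when 1 FPKM was added in place of the floor. The call of Tomm40 was lost under 18 alternatives and kept under 5, that of Pmpcb lost under 16 and kept under 7, and leaving out 1 library gave counts of 0 to 9. Timm10b (1.26, SE 0.30, adjusted p = 0.0501), Tomm22 (1.14, SE 0.28, adjusted p = 0.0524) and Dnajc15 (1.26, SE 0.31, adjusted p = 0.0556) were just outside. The estimate was above 0 for 27 of 33 members and for 53.4% of all entries. Timmdc1 is among the 27 (0.23), but all its egg values were set to the floor, so no egg measurement enters its estimate. Tomm20 and Dnajc19 are also among them, with WT eggs under 1 FPKM on average (0.583 and 0.785). None of these genes adds support to that count.

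A list of 32 further genes of mitochondrial import and protein quality control, such as prohibitins, inner membrane proteases and cristae proteins, was set beside these members. In GV oocytes 0 of 31 tested entries rose or fell in cKO, against 0.0994% and 0.0181% of all entries. In eggs 3 of 26 rose and 0 fell, against 6.53% and 1.49% of all entries, with a median log2 fold change of 0.19 against 0.07 over all entries. The 3 were Chchd6, a cristae junction protein at 7.00 ± 1.91 FPKM in WT and 18.5 ± 9.38 in cKO eggs (1.32, adjusted p = 0.0486 in limma), Phb2, a prohibitin at 15.8 ± 1.88 and 25.2 ± 4.45 (0.66, adjusted p = 0.0332), and Hscb, a cochaperone of iron-sulfur cluster assembly at 40.5 ± 3.26 and 52.5 ± 4.53 (0.37, adjusted p = 0.0386). In maturation 24 of 30 fell and 2 rose in WT, where 52.4% and 26.1% of all entries did, and 23 of 29 fell and 3 rose in cKO, where 51% and 23% did. Clpp, Dnlz and Mtch1, counted as falls, averaged under 1 FPKM in WT eggs (0.450, 0.238 and 0.536). So did Dnlz and Mtch1 in cKO eggs (0.519 and 0.701). In those comparisons they passed the filter only through the GV oocytes, so they add no support to the counts of falls. Romo1 and Immp1l rose in both genotypes. The interaction called 0 of 29, against 1.07% higher and 0.188% lower over all entries.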

How the data were processed

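RNA-seq was made by Smart-seq2 from 16 pools of mouse oocytes. The authors deposited FPKM values per gene. Per the labels, TopHat2 (2.1.1), Cufflinks (2.2.1) and mm10 were used, the gene annotation is not given in the sources used here, and spike-ins were not used here. A pool held 5 oocytes per the labels, and the methods give another number. Fits used limma 3.58.1 (R 4.3.3, empirical Bayes with an intensity trend) on log2 FPKM with values under 1 set to 1, which understates changes of low genes. The filter was a mean of 1 FPKM or more in a comparison of 4 libraries with 4, and p-values were adjusted over all of them (Benjamini-Hochberg, 0.05). The interaction used all 16 libraries. Single values used the two-sided exact permutation test. Depth was estimated, not counted, and precision rests on 4 libraries a group. Python 3.11.15, pandas 2.3.3, numpy 2.4.6 and scipy 1.17.1 were used, and fits were tested on simulated data. The members, role groups and the list of other import genes were chosen with earlier results of these data known. Full values are given for members called between genotypes or in the interaction, over 3-fold between genotypes, over 5-fold lower or higher in WT maturation, highest in a role group, or in a paralogue or partner pair, in whole or as mean and range, and others by range and counts. Alternatives changed the floor, filter, trend, scaling, block and libraries.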

Additional observations from a re-analysis of the deposited data

Results flagged for a closer look

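The test of whether the genotype difference changed with stage called Tomm40, with an interaction of 2.1 (SE 0.48, adjusted p = 0.0444) on the log2 scale in limma, and Pmpcb, with 1.09 (SE 0.25, adjusted p = 0.0434). The call was lost under 18 of 23 alternatives for Tomm40 and under 16 of 23 for Pmpcb, among them for both the replicate block, the fit without an intensity trend and 1 FPKM added, so the difference between stages rests on the settings. Every cKO egg exceeded every WT egg for both genes.

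A single library stood apart from the other 3 of its group, by Dixon's criterion, in 4 of 136 sets of 4 libraries examined (33 members and Psma7). About 1 in 20 sets would be marked by chance, or 6.8. Tomm20 was highest in cKO GV replicate 1, at 9.08 FPKM. Samm50 was highest in cKO GV replicate 3, at 25.3 FPKM. Hspe1 was lowest in cKO egg replicate 4, at 155 FPKM. Tomm34 was highest in WT GV replicate 1, at 61.2 FPKM.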

How the results depend on the processing

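The GV comparison called 0 members under every alternative, and both maturation counts stayed within 1.5 times. In eggs, the number called was 9, 2 with the replicate block, and 0 to 12 when 1 library was left out. Rescaling gave 8, a 0.1 FPKM floor 9, 1 FPKM added 8, all 16 libraries 13, a 5 FPKM filter 6 and no trend 6. For Tomm40 in eggs the log2 fold change was 2.23 with the replicate block (adjusted p = 0.0593), and 1.89 to 2.71 with 1 library left out. It averaged under 5 FPKM in eggs and has no value under that filter. The interaction called 2 members, 0 with 1 FPKM added, 1 without a filter (lower), 5 with a 5 FPKM filter, 0 without a trend, 5 after rescaling, 0 with the replicate block, and 0 to 9 with 1 library left out, 9 being without cKO egg replicate 2. The fit without a filter has residual variances of 0 for most of its entries and is unreliable. Members past 3-fold numbered 2, against 10 past 2-fold, and 1 to 4 with 1 library left out. The share of all entries called under each alternative is not given here, so these shifts are not shown to be particular to the members. The cause of these shifts was not tested. The deviations of replicates with the same number had r from -0.50 to 0.29 over 24 pairs, 6 above 0.1. Replicates with different numbers were not compared, so these values do not settle whether the numbers mark pairs. The numbers were not taken as pairs because they are not stated to mark a shared animal, litter or day. No member named as called between genotypes reversed. The calls of Chchd6, Phb2 and Hscb in eggs were not examined under the alternatives. Depth limits the members under 1 FPKM.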
